A study of Homo sapiens with 32 samples.

Results

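Clone F6 is 1 of 3 single-cell clones in which IGF2BP2 was targeted with Cas9 in HCT116, a human colorectal carcinoma cell line. It was chosen by the clone name in the library titles, and its 4 RNA-seq libraries of the 32 in the series are set here against the 8 libraries of the other IGF2BP2 knockout clones, B7 and G6. IGF2BP2 and its relative IGF2BP3 encode cytoplasmic RNA-binding proteins that attach to messenger RNAs, many of them methylated at adenosine, and affect their stability and translation. Epithelial cells such as those of the colon are joined by E-cadherin, tight junctions and desmosomes and rest on laminin. The transcription factor ZEB1 is known for shutting down E-cadherin and other epithelial genes, and vimentin is the intermediate filament of mesenchymal cells, so the opposed levels of such genes are used to place a carcinoma line along an axis from epithelial to mesenchymal.

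All lines, the parental cells included, carried an inducible OsTIR1 transgene with puromycin resistance (Tet-OsTIR1-PURO). Knockout cells had been transfected with a plasmid for Cas9 and a guide (PX458), and GFP-positive cells had been sorted singly, so each clone name stands for 1 clone. Each of F6, B7 and G6 had 2 control (DMSO) and 2 tunicamycin libraries, and the series also holds 8 libraries of 2 parental samples and 12 of the IGF2BP3 knockout clones A3, D12 and E4, with the same 2 treatments. Tunicamycin blocks N-linked glycosylation and so stresses the endoplasmic reticulum (ER). The labels give 5 µg/mL for 4 h for the parental and IGF2BP3 knockout cells, and no dose or time for the IGF2BP2 clones. Nothing in the labels says whether replicate libraries came from separate cultures, so p-values measure the spread between libraries and between B7 and G6. They do not measure the spread among IGF2BP2 knockout clones at large, of which F6 is 1.

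F6 and B7 were made with the same guide and G6 with another, so F6 differs from B7 in clone but not in guide. The guides are shown because they are the only designed difference among the 3 clones. Both lie in exon 1 of IGF2BP2 on the strand opposite to the transcript, in coding sequence (GRCh38, chr3:185824895-185824914 for F6 and B7, chr3:185824837-185824856 for G6). Each is written 5′ to 3′ with the adjoining PAM, read from the transcript sequence, in capitals.
Guide of F6 and B7: gagctgccggaggtcgtcggCGG
Guide of G6: aggcgtagccggacttcagcAGG

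The targeted transcript was reduced and not absent in all 3 clones. IGF2BP2 stood at 90.4 to 114 CPM (counts scaled to library size, normalized over all 32 libraries) in F6, 81.6 to 101 in B7 and 80.8 to 108 in G6, against 158 to 205 in the parental libraries. It was slightly higher in F6 than in B7 and G6, by 0.14 on the log2 scale (SE 0.03, edgeR adjusted p = 0.0132), with overlapping ranges, and the call was lost without either F6 tunicamycin library. IGF2BP3, at 65.2 to 72.7 CPM in F6, was not called different (log2 fold change -0.20, SE 0.14).

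Total counts ran from 16651438 to 21415667 in the F6 libraries and to 22426669 over the 3 clones, and mitochondrial transcripts took 8.41% to 9.71%. The first principal component (34.9% of the variance) separated the treatments. On the second (17.9%) the 4 F6 libraries lay between -34.7 and -17.1 and the other 8 between -3.49 and 25.5. The G6 control libraries are controls by title and library name while their treatment field says tunicamycin. Their HSPA5, an ER chaperone induced by ER stress, stood at 816 and 1000 CPM, near the F6 and B7 controls (776 to 1057) and far from the tunicamycin libraries (8979 to 10000), and they were used as controls. The 5 epithelial markers of the line were present in every library, with summed levels of 4105 to 5448 CPM in F6, 3443 to 4132 in B7 and 3019 to 3906 in G6. Markers of 13 genes for blood, endothelial, stromal, muscle or nerve cells summed to 5.84 to 10.4 CPM in F6 and 10.7 to 13.7 in B7 and G6, with 5 of the 13 at 0 in all F6 libraries. Of the 3 that could be tested, COL1A1, a fibrillar collagen, was lower in F6 (-0.72).

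F6 differed from B7 and G6 in 2483 of 14952 genes tested (16.6%), with 1189 higher (7.95%) and 1294 lower (8.65%) at an adjusted p of 0.05 (edgeR quasi-likelihood test, treatment and replicate number as terms). Most differences were small: the median size among the called genes was 0.31 on the log2 scale, and 254 exceeded 1. In 722 genes (4.83%) the 4 F6 libraries all lay beyond the 8 others. Pairwise, F6 differed from B7 in 30.7% of genes and from G6 in 23.8%, while B7 and G6 differed from each other in 22.1%. Between-clone differences were therefore widespread also where F6 took no part. Leaving out the first F6 control library lowered the count against B7 and G6 to 1429, and leaving out the second F6 tunicamycin library lowered it to 1501.

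**Figure D1:**
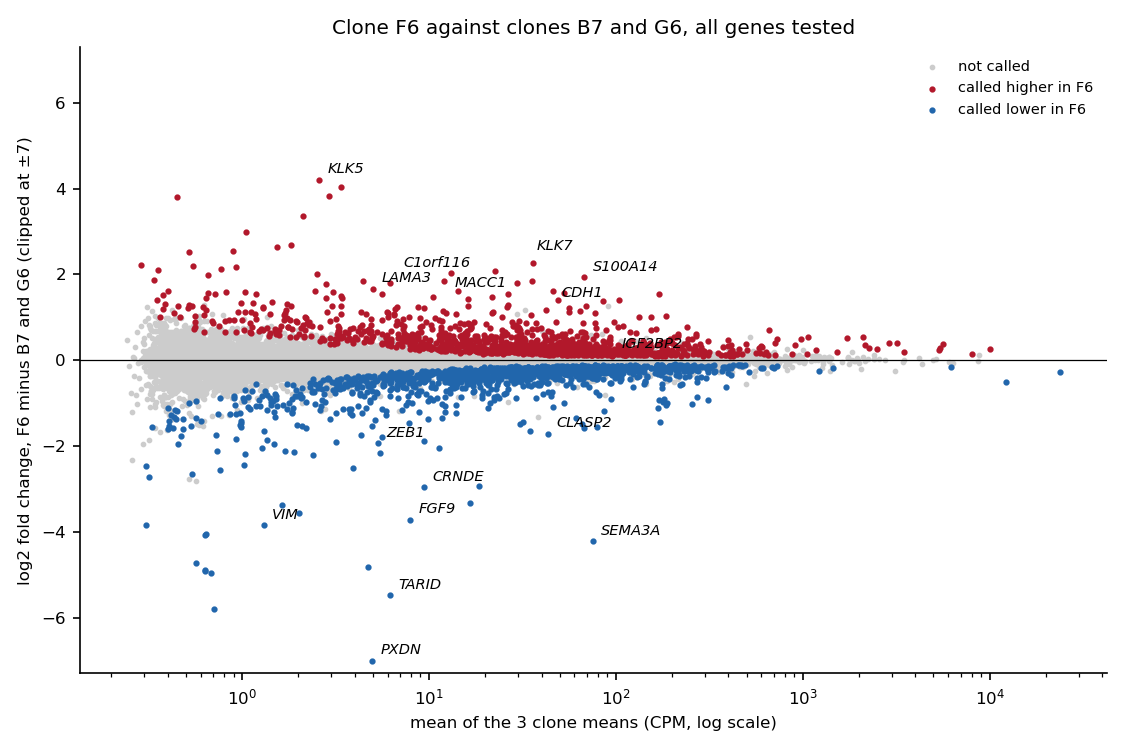
Log2 fold change of F6 against B7 and G6 (vertical axis) by mean level of the 3 clones in CPM (horizontal axis, log scale), 1 point for each of the 14952 genes tested, coloured where the adjusted p was at most 0.05. Most coloured points lie close to 0, and PXDN, which had no count in F6, is drawn at the lower limit of the axis.

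The 15 largest increases named by a rule of size (called, a mean count of at least 100 over the 12 libraries, no overlap between F6 and the others) were KLK7, C1orf116, KLK6, S100A14, KLK10, MACC1, WNT9A, LAMA3, SAMD9, CDH1, GALNT5, SEMA7A, MGLL, F3 and ELF3. The 15 largest decreases were PXDN, TARID, SEMA3A, FGF9, GRIN2B, CRNDE, TNFSF18, ANXA10, LINC02331, ZEB1, SCML1, ZC4H2, CLASP2, ZBED2 and HTR7. Non-overlap and a call were part of the choice and add nothing to it. The 8 parental libraries were not used by the rule. The F6 libraries lay above all 8 for 14 of the 15 increases (SEMA7A overlapped) and below all 8 for 13 of the 15 decreases (TNFSF18 and ZBED2 overlapped). The F6 libraries are the ones by which the genes were picked, so these counts are not independent of the choice. The share of all genes that lay beyond the parental libraries is not given here.

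Genes of cell adhesion and epithelial identity were among the increases. CDH1, which encodes E-cadherin, stood at 75.6 and 57.6 CPM in the F6 controls and 112 and 90.1 under tunicamycin, against 16.4 to 41.9 (median 26.2) in the other 8 libraries. Every F6 library exceeded all 8 of these, and the log2 fold change was 1.61 (SE 0.11, edgeR adjusted p = 9.12e-07). The 5 epithelial markers EPCAM, CDH1, KRT8, KRT18 and KRT19 were all called higher (median log2 fold change 0.50, against -0.01 over all genes tested), although the keratins differed little, by 0.33 to 0.50. EPCAM, a surface adhesion molecule, read 384, 316, 360 and 335 CPM in F6 and 189 to 280 in the others. The parental libraries, at 21.2 to 42.1 CPM for CDH1, were close to B7 and G6.

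Junction and polarity genes moved in the same direction as CDH1. Of 27 tested genes on a list chosen after values had been seen, 21 were higher, none was lower, and the median was 0.52. OCLN, the tight junction protein occludin, stood at 42.1 and 26.6 CPM in the F6 controls and 59.8 and 46 under tunicamycin, against 10.6 to 23.9 (median 18.8) in the others, with no overlap (log2 fold change 1.28, SE 0.07, edgeR adjusted p = 9.81e-08). CLDN4 (1.26) and CLDN7 (1.00), claudins of the tight junction, AP1M2 (1.22), the clathrin adaptor subunit for basolateral sorting, and TJP3 (0.86) followed. Desmosomal genes rose less, by 0.58 for DSC2, 0.55 for JUP, 0.43 for PKP3 and 0.31 for DSG2, and DSP, PKP2, CLDN3, MARVELD2 and MAL2 were among those not called. In the separate fits 22 of the 27 were higher in F6 than in B7 and also than in G6. Of all 14952 genes tested, 2249 were called higher than in B7 and 1709 higher than in G6. Against parental cells 23 of the 27 were higher, where 14.4% of all genes were called higher and 12.5% lower. The comparisons with B7, G6 and parental cells share the F6 libraries.

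Transcription and splicing factors of epithelial cells, also listed after values had been seen, were higher in 6 of 8 tested, with none lower and a median of 0.52. ELF3, an ETS factor of epithelia, stood at 17.9 and 12.3 CPM in F6 controls and 26.6 and 17 under tunicamycin, and at 4.34 to 9.34 (median 6.51) in the others, so the groups did not overlap (log2 fold change 1.48, SE 0.11, edgeR adjusted p = 1.59e-06). GRHL2, a grainyhead factor that activates CDH1, was higher by 1.43 and EHF by 0.79. The splicing factor ESRP1 (0.39) and OVOL1 (0.65) lay near the threshold, and the list's count fell to 4 without the G6 control libraries, to 3 without the first F6 tunicamycin library and to 1 with summed replicate libraries, when GRHL2 and EHF also lost their calls. MACC1, an activator of the MET receptor gene, read 75.8, 49.7, 59.7 and 40.8 CPM in F6 and 11.4 to 22.3 (median 15.7) in B7 and G6 (1.80). S100A14, a calcium-binding protein of epithelia, read 143, 103, 163 and 123 CPM against 16.4 to 59.3 (median 31.1), with B7 above G6 in every library (1.94).

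**Figure D2:**
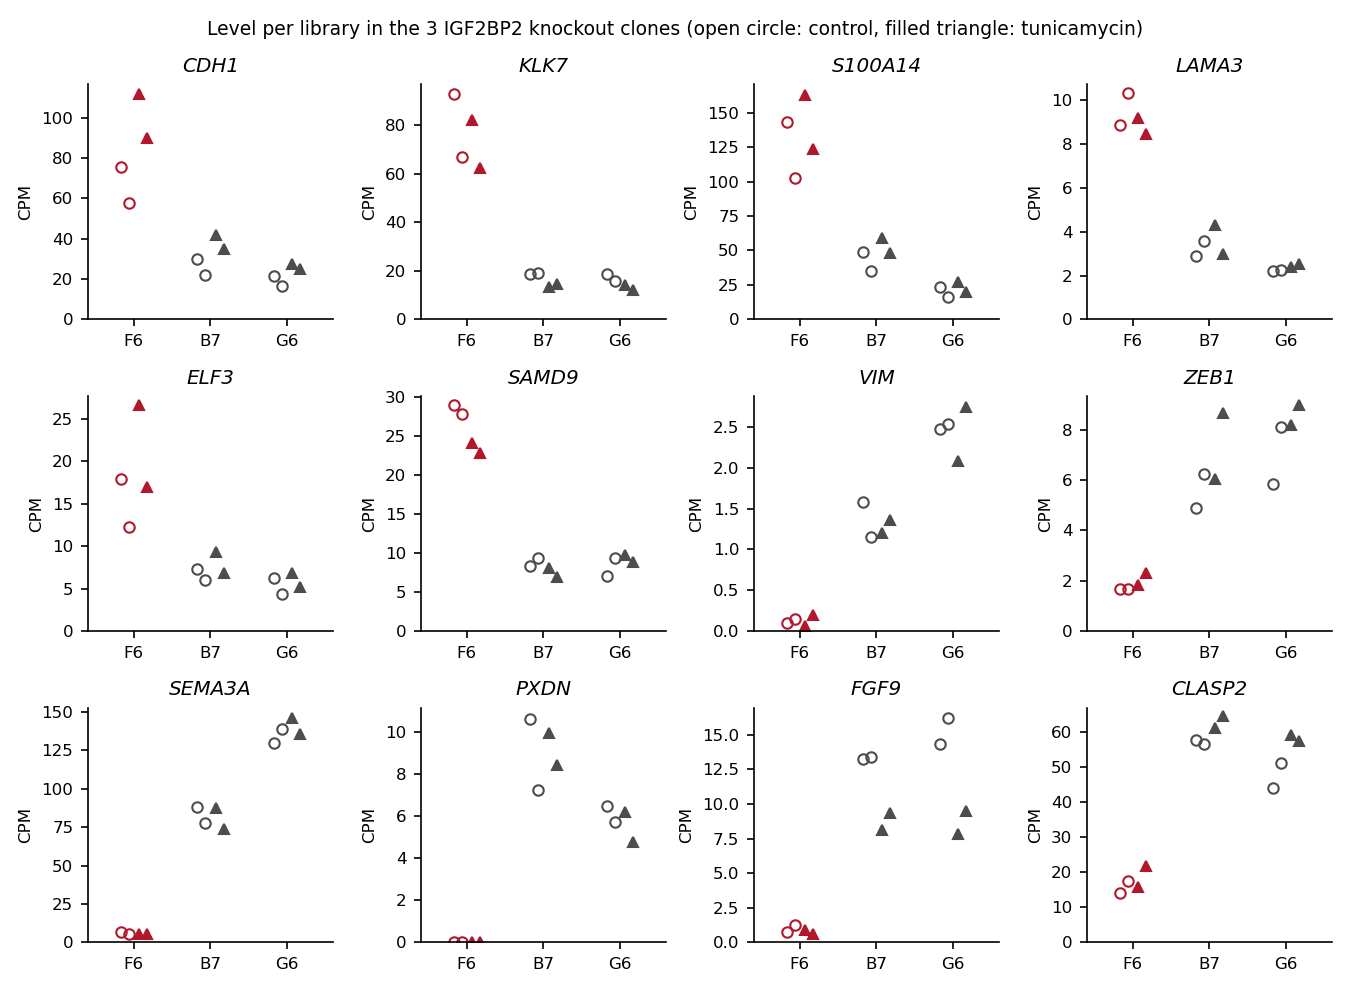
Level in CPM (vertical axes, from 0) of 12 genes in each of the 12 libraries of F6, B7 and G6 (horizontal axis), open circles for control and filled triangles for tunicamycin. In all 12 panels the F6 libraries lie apart from the other 8, above them for CDH1, KLK7, S100A14, LAMA3, ELF3 and SAMD9 and below them for VIM, ZEB1, SEMA3A, PXDN, FGF9 and CLASP2.

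Secreted serine proteases of the kallikrein family were among the most changed genes. KLK7, a chymotrypsin-like protease known from skin shedding, stood at 92.8 and 66.8 CPM in the F6 controls and 82.2 and 62.6 under tunicamycin, against 12.1 to 19 (median 15.1) in the others (log2 fold change 2.27, SE 0.08, edgeR adjusted p = 1.83e-09). The lowest F6 library was above the highest of the others. KLK5, the trypsin-like protease that activates KLK7, read 9.2, 5.56, 6.87 and 6.29 CPM in F6 and at most 0.622 in B7 and G6 (4.21, SE 0.23). It reached at most 0.668 CPM in parental and 1.23 in IGF2BP3 knockout libraries. KLK6 (2.04), KLK10 (1.85) and KLK8 (1.07) were higher too. These genes are neighbours on chromosome 19, and of the 10 genes tested in that stretch the 5 kallikreins named were higher while KLK1, KLK13 and KLK14 were among the 5 not called. The membrane proteases ST14 (1.00) and PRSS8 (0.57) and their inhibitors SPINT1 (0.48) and SPINT2 (0.28) were also higher. All 9 tested genes of this list, chosen after values had been seen, rose (median 1.07). The list leaves out KLK1 (0.19), KLK13 (-0.56) and KLK14 (-0.58), so its count reflects the choice of members.

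LAMA3 and LAMB3, which encode chains of a basement membrane laminin of epithelia, were both higher in F6. LAMA3 (chr18:23689443-23956222) stood at 8.87 and 10.3 CPM in F6 controls and 9.2 and 8.49 under tunicamycin, with 2.21 to 4.33 (median 2.73) in the others and 2.91 to 3.98 in parental libraries. F6 lay above all of these (log2 fold change 1.67, SE 0.16, edgeR adjusted p = 1.39e-05). LAMB3 was higher by 0.70 with overlapping ranges. ITGA6, a subunit of the integrin that binds this laminin, was higher by 0.30 and LAMA5, a chain of other laminins, was lower by 0.37. In the whole list of 12 laminin and hemidesmosome genes 4 were higher and 1 lower, with a median of 0.03. Of 10 integrin genes 4 were higher (ITGA3, ITGA6, ITGAV and ITGB1, by 0.20 to 0.30) and 1 was lower (ITGB5, -0.17, a call lost without any single F6 library).

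SEMA3A, a secreted guidance and anti-angiogenic semaphorin, showed the opposite. It stood at 6.97 and 5.61 CPM in F6 controls and 5.8 and 5.32 under tunicamycin, against 73.8 to 146 (median 109) in B7 and G6 (chr7:83955777-84492724). F6 was far below both clones and below the parental range of 33.3 to 56.6 (log2 fold change -4.21, SE 0.27, edgeR adjusted p = 4.00e-07). B7 and G6 themselves stood above every parental library, so the contrast with them is larger than that with parental cells, which was -2.87. Of the 13 tested class 3 semaphorins and their receptors, SEMA3B (0.51) was higher, SEMA3A and the receptor PLXND1 (-0.36) were lower, and the median was 0.04. The calls of SEMA3B and PLXND1 were lost without the first F6 control or the second F6 tunicamycin library. SEMA7A, a membrane-anchored semaphorin outside that class, was higher by 1.55.

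Mesenchymal genes fell in part. VIM, the gene of vimentin, stood at 0.0949 and 0.141 CPM in the F6 controls and 0.063 and 0.195 under tunicamycin, against 1.15 to 2.75 (median 1.83) in the others and 2 to 3.39 in parental libraries (log2 fold change -3.85, SE 0.44, edgeR adjusted p = 6.08e-05). ZEB1 read 1.66, 1.65, 1.83 and 2.29 CPM in F6 and 4.88 to 8.97 (median 7.17) in B7 and G6 (-1.93, SE 0.14, edgeR adjusted p = 9.58e-07). For both genes all F6 libraries were below those of B7, G6 and the parental samples. Low ZEB1 was not particular to F6. It read 4.43 to 8.92 CPM in parental and 1.59 to 7.04 in IGF2BP3 knockout libraries, and the latter overlapped F6, with a mean of 2.36 in A3. MMP14, a membrane metalloprotease, was lower by 1.37 and the receptor kinase AXL by 0.22. Against B7 and G6, 4 of 12 tested genes thus fell and none rose, with a median of -0.07. Against parental cells the list was mixed, with 3 of the 12 higher in F6 and 4 lower. Of all genes 14.4% were called higher and 12.5% lower there. In bulk libraries, lower levels in each cell and fewer cells expressing a gene cannot be told apart.

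The E-box CACCTG, read on either strand, is the sequence that ZEB and SNAI factors bind. It was searched in the promoters of the RefSeq table (GRCh38.p14, 250 bases before to 50 after each start) as a description of the genes that moved. It was present in 20.6% of all 35116 promoters and in 18.7% of those of tested genes. Promoters of genes higher in F6 held it in 24.6% of 964 and those of genes lower in F6 in 15.1% of 976. On the junction list it was found in 10 of the 18 genes with an entry, among the 15 largest increases in 6 of 12, and among the 15 largest decreases in 1 of 12, ZEB1. CLDN4, CLDN7, KLK7 and F3, all higher in F6, hold no match. The promoters of 4 of the genes described, all with a match, are printed. The 250 bases before the start are given in the gene's own direction, with the motif in capitals on whichever strand it lies. These promoters are examples and do not stand for all raised genes. They are MACC1 (chr7:20217385-20217634, minus strand), LAMA3 (chr18:23872770-23873019, plus), AP1M2 (chr19:10587313-10587562, minus) and OCLN (chr5:69492297-69492546, plus).
MACC1: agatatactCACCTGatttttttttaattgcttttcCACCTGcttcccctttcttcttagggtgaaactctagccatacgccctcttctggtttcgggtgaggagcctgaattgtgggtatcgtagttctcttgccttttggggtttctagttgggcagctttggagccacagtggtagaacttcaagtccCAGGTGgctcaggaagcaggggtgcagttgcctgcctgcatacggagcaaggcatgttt
LAMA3: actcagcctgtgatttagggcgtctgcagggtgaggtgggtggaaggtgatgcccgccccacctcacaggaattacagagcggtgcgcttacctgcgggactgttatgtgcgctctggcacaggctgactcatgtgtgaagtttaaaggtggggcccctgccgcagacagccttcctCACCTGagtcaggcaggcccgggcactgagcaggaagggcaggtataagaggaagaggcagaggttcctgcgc
AP1M2: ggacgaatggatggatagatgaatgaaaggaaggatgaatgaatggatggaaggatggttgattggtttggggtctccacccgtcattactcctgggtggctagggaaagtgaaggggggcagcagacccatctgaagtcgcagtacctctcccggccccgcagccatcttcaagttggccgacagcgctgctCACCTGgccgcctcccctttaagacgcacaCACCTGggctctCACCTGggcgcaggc
OCLN: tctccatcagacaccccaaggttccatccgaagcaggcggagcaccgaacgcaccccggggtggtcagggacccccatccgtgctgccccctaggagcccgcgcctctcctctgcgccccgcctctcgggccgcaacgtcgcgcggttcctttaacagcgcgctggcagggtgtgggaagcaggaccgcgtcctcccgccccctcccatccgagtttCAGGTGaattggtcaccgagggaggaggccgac
MACC1 and AP1M2 hold 3 copies each within these bases, and LAMA3 and OCLN 1 each. The LAMA3 window lies inside the gene's span (chr18:23689443-23956222), at an internal start and not at the upstream end. Counts are per gene and do not tell transcripts from different starts apart. A match shows only that the letters are present.

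Interferon-stimulated genes, which cells switch on in antiviral defence, were higher in part. Of the 23 tested of 32 listed, 11 were higher and none lower, with a median of 0.32. SAMD9, an antiviral factor, stood at 29.1 and 27.9 CPM in F6 controls and 24.1 and 22.9 under tunicamycin, against 6.93 to 9.75 (median 8.55) in the others, with a wide gap between them (log2 fold change 1.62, SE 0.10, edgeR adjusted p = 3.09e-07). OASL, an oligoadenylate synthetase-like protein, read 8.4, 3.16, 6.3 and 3.85 CPM against 1.2 to 2.04 (1.78), with both first replicates above both second ones. ISG15, a ubiquitin-like modifier, read 71.2, 44.2, 61.3 and 42.5 CPM against 26.9 to 38.5 (0.75), again apart from the others but overlapping the parental range of 35.1 to 54.9.

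The RNA sensors RIGI (0.92) and IFIH1 (0.82), the PARP9 (1.10) and DTX3L (0.76) pair, IFIT1 (1.07), USP18 (0.64), OAS3 (0.32) and STAT2 (0.31) completed the 11. The transcription factor IRF1 (-0.17) was not called. The calls of IFIT1, IFIH1, OAS3 and USP18 were each lost without at least 1 single F6 library, the first control library in all 4 cases, whose omission left 7 calls. The count was 11 without the G6 control libraries, 11 against G6 alone and 15 against B7 alone. Here and below, the fits against B7 alone and against G6 alone leave out the remaining clone. Over all genes, the fit against B7 alone called 2549 higher and 2372 lower of 15015. That against G6 alone called 1611 higher and 1693 lower of 15062. Both called more genes than the main comparison, so a larger list count in them is not in itself a result about the list. Antigen presentation genes were higher in 6 of 13 (HLA-C, HLA-E, HLA-F, TAP1, ERAP1 and ERAP2, by 0.22 to 0.77) and lower in none, with a median of 0.39. This count fell to 3 without the first F6 control library and to 1 when the replicate libraries of a clone and treatment were summed, and it rose to 11 against B7 alone.

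An ISRE-like sequence, 2 copies of GAAA spaced by 2 bases of any kind, which interferon regulatory factors bind, was present on either strand in 3.57% of all promoters in the table and 2.65% of those of tested genes. It was found in 16 of the 25 interferon-stimulated genes with an entry and in 6 of the 9 of these that were higher in F6. It is printed for ISG15 (chr1:1013247-1013496, plus strand) and SAMD9 (chr7:93117980-93118229, minus), in the same form as the promoters above. Both hold a match, while PARP9, RIGI and STAT2, also higher in F6, hold none.
ISG15: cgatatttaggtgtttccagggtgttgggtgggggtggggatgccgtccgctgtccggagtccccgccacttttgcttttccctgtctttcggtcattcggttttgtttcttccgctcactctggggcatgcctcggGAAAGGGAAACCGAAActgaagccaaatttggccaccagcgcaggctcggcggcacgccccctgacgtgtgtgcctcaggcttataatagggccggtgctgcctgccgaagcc
SAMD9: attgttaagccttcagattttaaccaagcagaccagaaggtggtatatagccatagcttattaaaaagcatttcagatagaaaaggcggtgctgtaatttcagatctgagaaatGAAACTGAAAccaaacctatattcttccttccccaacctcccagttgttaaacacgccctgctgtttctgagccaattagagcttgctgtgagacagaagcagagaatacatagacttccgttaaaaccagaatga
ISG15 holds 2 overlapping matches and SAMD9 1.

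Among NF-kB targets 5 of 14 were higher and none lower, with a median of 0.38. BIRC3, an inhibitor of apoptosis, stood at 14.9 and 11.4 CPM in F6 controls and 14.7 and 15.2 under tunicamycin, and at 4.23 to 8.35 (median 5.91) in the others, without overlap (1.24, SE 0.09, edgeR adjusted p = 1.15e-06). TNFAIP3 (0.51) and IER3 (0.35) were also higher. LCN2 (1.87) was called at levels of at most 1.07 CPM. LCN2 and TNFAIP3 lost their calls without the second F6 tunicamycin library, which left 2 on the list, and CXCL2 (0.94) lost its call without 3 of the 4 F6 libraries, each left out singly. Summed replicate libraries left 1 call. Against B7 alone 8 were made, in a fit that called 2549 of 15015 genes higher.

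Genes that respond to BMP and TGF-beta were lower in part. Of 13 tested, 8 were lower and none higher, with a median of -0.52, and all 8 were lower than in B7 and than in G6. Of all 14952 genes tested, 2334 were called lower than in B7 and 1855 lower than in G6. ID2, an inhibitor of helix-loop-helix factors induced by BMP, stood at 134 and 155 CPM in F6 controls and 79 and 96.2 under tunicamycin, against 137 to 294 (median 204) in the others (-0.90, SE 0.15, edgeR adjusted p = 0.001181). The ranges overlapped at the G6 libraries, which lay below those of B7. ID1 (-0.41), ID3 (-0.52), the feedback inhibitor SMAD7 (-1.54), SKIL (-0.65), the ligand BMP4 (-0.81), the receptor TGFBR2 (-0.62) and FSTL3 (-0.21) made up the rest. SMAD7 and SKIL lost their calls without the first F6 control or the second F6 tunicamycin library, either of which left 5 calls on the list, and FSTL3 without any single F6 library. With summed replicate libraries 3 calls were left, and ID2, ID3, SMAD7, SKIL and FSTL3 were not among them. BMP4 was lower under tunicamycin in every clone, and its F6 tunicamycin libraries (16.7 and 17.6 CPM) were below all others.

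Wnt and YAP targets were mixed. AXIN2, a feedback inhibitor of Wnt signalling, stood at 1.28 and 2.03 CPM in F6 controls and 0.189 and 0.0976 under tunicamycin, with 0.482 to 5.7 in the others, where it was also low under tunicamycin (-1.52, SE 0.23, edgeR adjusted p = 0.0005687). Of 10 Wnt targets 3 were lower (AXIN2, NOTUM and TCF7L2) and 1 higher (CCND1, 0.35), with a median of -0.15. NOTUM and TCF7L2 lost their calls without either F6 control library or the second F6 tunicamycin library. Of 8 YAP targets 3 were lower, among them CCN2, a matricellular protein (-1.49), CRIM1 (-0.55) and TEAD1 (-0.14), the last lost without any single F6 library. F3, tissue factor, was the one that rose, at 356, 314, 281 and 255 CPM against 75.3 to 149 (1.53).

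In the ERK and AP-1 list 8 of 22 were higher and 4 lower, with a median of 0.04. Ligands of the EGF receptor rose: HBEGF (1.04), TGFA (0.90), AREG (0.48) and EREG (0.40). HBEGF stood at 20.3 and 17.1 CPM in F6 controls and 94.5 and 84.4 under tunicamycin, and at 8.87 to 42.5 in the others, so that it was higher than its counterparts under each treatment. DUSP5 (0.48), JUNB (0.39), PHLDA1 (0.36) and FOSL1 (0.24) rose too, PHLDA1 with a call lost without 3 of the 4 F6 libraries, each left out singly. Among the 4 that fell were DUSP6, the phosphatase that dampens ERK (-0.98), and the ETS factors ETV5 (-0.53) and ETV4 (-0.22), with EGR1 (-0.35) the last. EGR1 lost its call when any F6 library was left out, and 9 genes of the list were lower against B7 alone. For DUSP6 the F6 controls read 75.5 and 67.6 CPM, under all others (141 to 283), and the tunicamycin libraries 158 and 146.

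The urokinase system of plasminogen activation rose at its protease and receptor. PLAU, urokinase, read 71.5 and 41 CPM in F6 controls and 102 and 59.7 under tunicamycin against 21.3 to 36.6 (1.17), and PLAUR, its receptor, was higher by 1.12, with no overlap for either. SERPINE2, an inhibitor, was lower by 0.13 with a call that most single libraries could undo, and the other 5 of the 8 tested were not called.

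**Figure D3:**
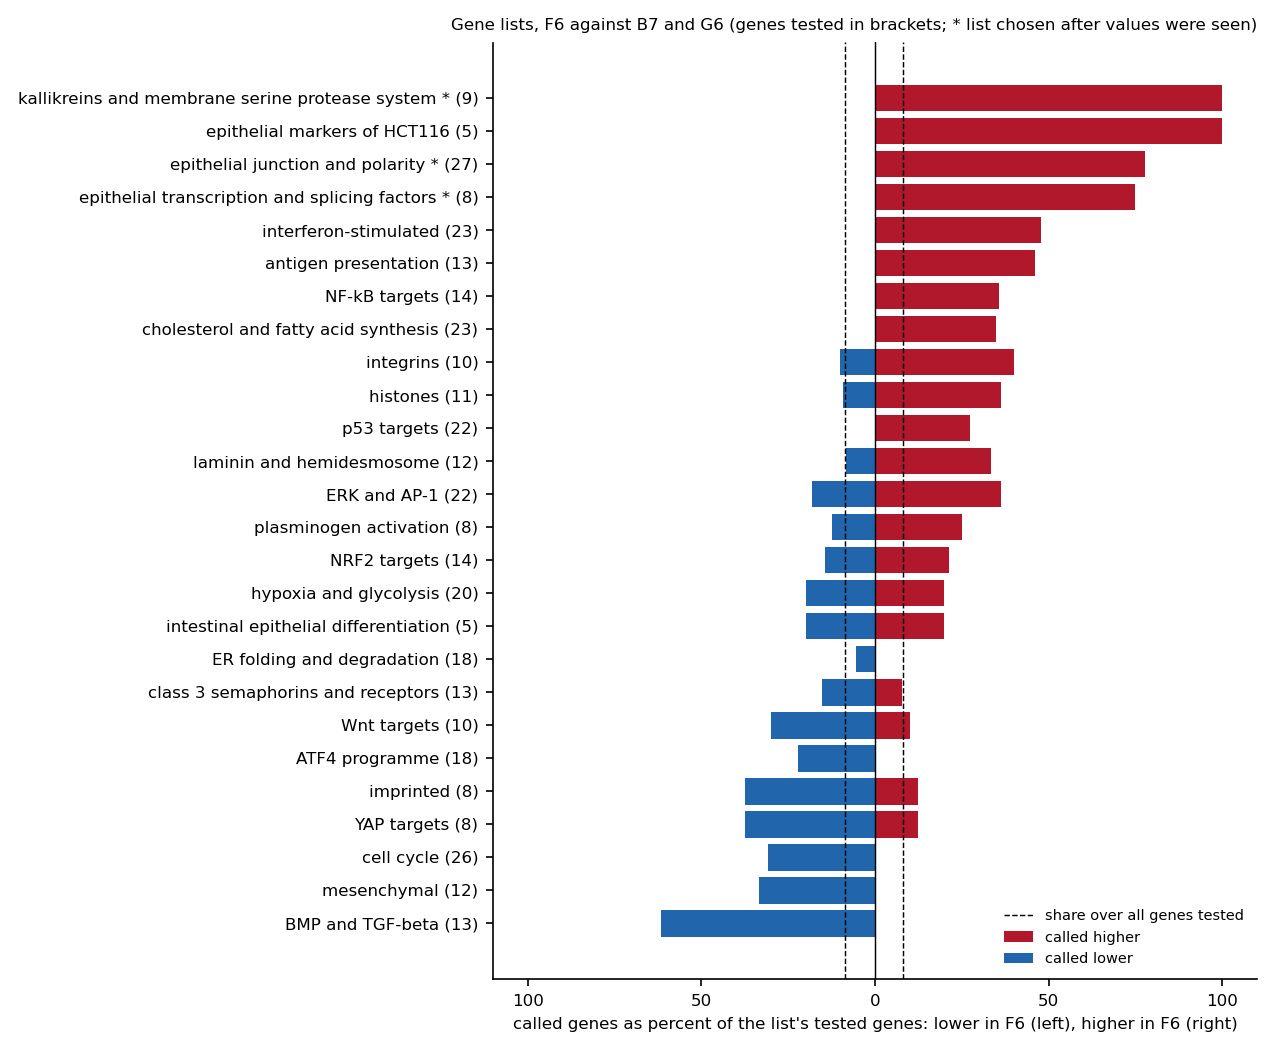
Share of each gene list's tested genes called higher in F6 (right) or lower (left), in percent, with the number tested in brackets and dashed lines at the shares over all genes (7.95% higher, 8.65% lower). Asterisks mark the 3 lists chosen after values were seen. The kallikrein list leaves out KLK1, KLK13 and KLK14, which were tested and not called. The kallikrein, epithelial marker, junction, epithelial factor and interferon-stimulated lists reach only to the right, and BMP and TGF-beta, mesenchymal and cell cycle genes only to the left.

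Lists for growth, metabolism and stress also held called genes. Cell cycle genes were lower in 8 of 26 and higher in none, by 0.14 to 0.38, with a median of -0.11, and 5 of the 8 were replication genes of the MCM group or their loader (MCM2, MCM3, MCM5, MCM7 and CDT1). MCM2 and MCM5 were not called without either F6 control library, which left 4 (first) or 5 (second) cell cycle calls, and 14 were made against B7 alone. p53 targets were higher in 6 of 22 (CDKN1A, MDM2, BAX, FAS, GDF15 and PLK3, by 0.35 to 0.56) and lower in none, with a median of 0.08, but 3 were called lower once the G6 control libraries were left out and 7 against B7 alone, and GDF15 lost its call without 3 of the 4 F6 libraries, each left out singly. Cholesterol and fatty acid synthesis genes were higher in 8 of 23, among them SCD (0.54) and HMGCS1 (0.46), with a median of 0.10. Histone genes were higher in 4 of 11 and lower in 1, and near-identical copies make their counts uncertain. Hypoxia and glycolysis genes were higher in 4 and lower in 4 of 20, among them the glucose transporter SLC2A1 (-0.93), and most fits without 1 F6 library left 2 in each direction. NRF2 targets were higher in 3 and lower in 2 of 14, but 1 and 0 without the first F6 control library, 2 and 0 without the second, and 2 and 1 without the first F6 tunicamycin library.

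The ATF4 programme was lower in 4 of 18 (PHGDH -0.50, PSAT1 -0.27, SLC7A11 -0.25 and TRIB3 -0.25) with a median of -0.09, and ER folding and degradation genes were lower in 1 of 18 (SYVN1, -0.12). SLC7A11, TRIB3 and SYVN1 lost their calls in most fits that left out 1 F6 library. Without either F6 control or either G6 tunicamycin library 2 ATF4 genes were called lower, and against G6 alone 8. ER folding genes were called higher in 7 cases against B7 alone, in 5 with DESeq2, in 4 without the second G6 tunicamycin library and in 4 without the G6 control libraries, against 0 here. Imprinted genes were higher in 1 of 8 and lower in 3, among them IGF2 (-1.38), the growth factor from whose transcript the family takes its name. The call of IGF2 was lost when any of the 4 F6 libraries was left out, and that of GRB10 without either F6 control or the second F6 tunicamycin library, each of which left 1 lower. Of 5 intestinal genes EPHB2 was higher (0.83) and CDX2 lower (-0.36). None of 3 tested cancer-testis genes was called, no protocadherin beta gene could be tested, and IGF2BP2 was the 1 gene called of the 2 tested in its own family.

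Several single genes were nearly silent or far lower in F6 than in B7 and G6. PXDN, a peroxidase that cross-links collagen IV in basement membranes, had 0 counts in all 4 F6 libraries and 92 to 216 in each of the other 8, which makes it at least 195-fold lower (floor of 3 counts over the 4 libraries). FGF9, a growth factor ligand, stood at 0.759 and 1.23 CPM in F6 controls and 0.882 and 0.634 under tunicamycin, against 7.82 to 16.2 (median 11.3) in the others (-3.72). GRIN2B, an NMDA receptor subunit (-3.32), the noncoding RNA CRNDE (-2.95) and TNFSF18, the ligand of the receptor GITR (-2.94), were also far lower. TNFSF18 stood at 1.66 and 1.04 CPM in F6 controls and 4.92 and 5.9 under tunicamycin, with 7.13 to 45 in B7 and G6. Its parental libraries (3.39 to 22 CPM) and IGF2BP3 knockout libraries (1.36 to 17.5) overlapped F6.

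Some of the lower genes lay close together on chromosome 6, in a stretch picked after its values were seen. From L3MBTL3 to SGK1, 9 of 21 tested genes were lower, where 8.65% of all genes were, 1 was higher (STX7) and 11 were not called. The lower ones were L3MBTL3 (-0.29), SAMD3 (-1.28), TMEM200A (-1.56), CCN2 (-1.49), LINC00326 (-3.56), EYA4 (-4.91), TARID (-5.47), TBPL1 (-0.35) and SGK1 (-0.89). TARID is an antisense RNA that overlaps its neighbour EYA4, and since the use of strand in counting is not given, reads of the pair cannot be told apart. Low levels of the pair were not particular to F6. Mean TARID was 0.2 CPM in F6, 0.169 in A3 and 0.157 in D12. It was 2.79 in E4 and 2.64 and 2.78 in the parental samples. Mean EYA4 was 0.0241 CPM in F6, 0.022 in A3, 0.0129 in D12 and 0.231 in E4. CLASP2 and TOP2B, both on chromosome 3, were singled out after their values were seen. In the stretch around them 4 of 30 tested genes were lower, 2 were higher and 24 were not called. CLASP2, a protein that stabilizes microtubules, read 14.1, 17.4, 15.8 and 21.7 CPM in F6, against 43.9 to 64.3 (median 57.5) in B7 and G6 and 44.9 to 60.6 in parental libraries (-1.71, SE 0.08, edgeR adjusted p = 3.98e-08). TOP2B, a DNA topoisomerase, read 107, 107, 114 and 120 CPM against 194 to 245 (-1.01, SE 0.05), and for both genes the F6 libraries were well below every other.

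Genes of chromosome 8 stood apart, in the comparison with B7 and not in that with G6. Its 523 tested genes had a median of -0.26 in F6 against B7 and G6, with 67 lower (12.8%) and 7 higher, while the medians of the other chromosomes lay between -0.03 and 0.02. The median was -0.46 against B7 and 0.00 against G6, B7 exceeded G6 by 0.47, and F6 differed from parental cells by 0.01. All 13 windows of 10 Mb on this chromosome had lower medians (-0.36 to -0.12) than any window elsewhere (-0.12 to 0.17). Without its genes 2409 genes remained called, 1182 higher and 1227 lower, and the counts of junction, kallikrein, interferon and BMP genes did not move. Of the 181 called list or named genes 177 remained, so the counts of some other lists fell. DNA copy number was not tested.

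**Figure D4:**
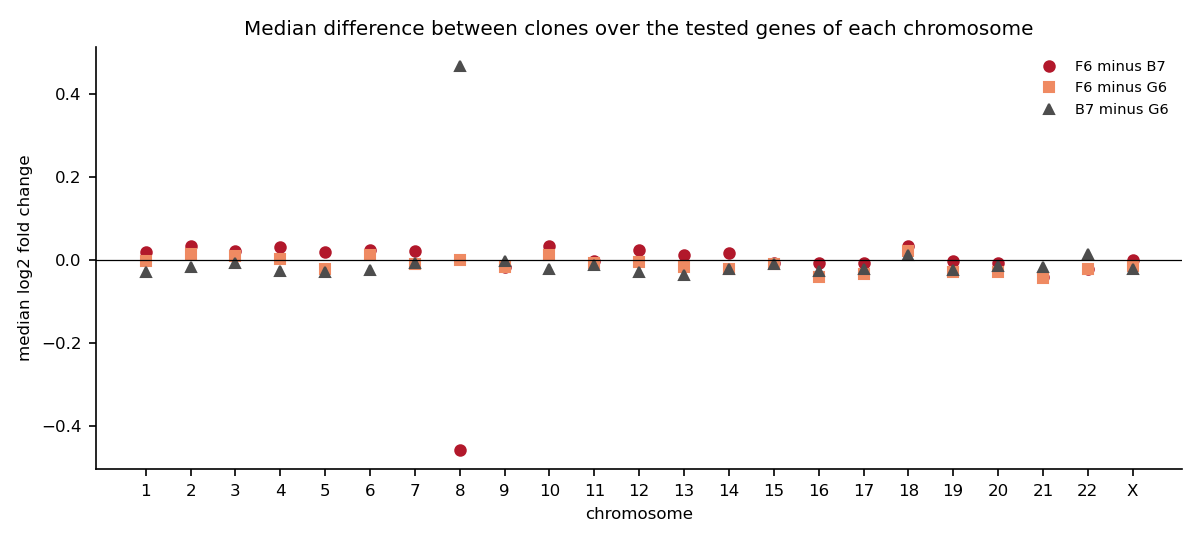
Median log2 fold change over the tested genes of each chromosome (horizontal axis) for F6 minus B7, F6 minus G6 and B7 minus G6. Points lie near 0 except on chromosome 8, where F6 minus B7 is at -0.46 and B7 minus G6 at 0.47.

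The IGF2BP3 knockout clones share low SEMA3A with F6. It stood at 0.722 to 3.11 CPM in their 12 libraries, below all of F6. In the comparison of these clones with parental cells, which uses no library of the F6 comparison, 802 of 15091 genes were higher (5.31%) and 1139 lower (7.55%). Of 1283 genes lower in F6 and tested in both, 251 (19.6%) were also lower in IGF2BP3 knockout, where 7.68% of all genes tested in both were, and 56 (4.36%) were higher. Those 251 are 22.2% of the genes lower in IGF2BP3 knockout. Of 1183 genes higher in F6, 154 (13.0%) were also higher there, against 5.41% of all, and 105 (8.88%) were lower. Across the 14758 genes the fold changes correlated weakly (Pearson r = 0.19, Spearman rho = 0.12), a description over genes that are not independent.

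The 10 genes with the largest change in both were all lower. They were SEMA3A (-4.21 in F6 and -4.67 in IGF2BP3 knockout), ILDR2 (-1.64 and -1.61), TMEM200A (-1.56 and -1.51), ANXA10 (-2.15 and -1.49), CNTNAP3C (-1.41 and -1.77), GGT5, ZNF419, SAMD3, SATB1 and SNTB1. CNTNAP3C has near-identical paralogs, and its counts are uncertain. SNTB1 in F6 was not called different from parental cells (-0.22, edgeR adjusted p = 0.3084), ZNF419 not from B7 (adjusted p = 0.1241) and GGT5 not from G6 (adjusted p = 0.2178). TMEM200A, a membrane protein from the chromosome 6 stretch, read 46.4, 36, 29.2 and 27.9 CPM in F6, 78.4 to 126 in B7 and G6, 64.6 to 102 in parental and 9.9 to 50.9 in IGF2BP3 knockout libraries, so the last overlapped F6 alone. SATB1, a chromatin organizer, read 0.759, 0.801, 1.2 and 0.976 CPM in F6, 2.14 to 3.31 in B7 and G6 and 0.206 to 1.53 in IGF2BP3 knockout.

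LAMA3 and CDH1 were higher in both comparisons. LAMA3 was higher in IGF2BP3 knockout by 0.89 (adjusted p = 8.82e-06), at 4.05 to 8.09 CPM, still below all F6 libraries. CDH1 was higher by 0.43 (edgeR adjusted p = 0.01415), at 24.8 to 65.2 CPM. Its mean in E4, 30.7 CPM, lay between those of the parental samples (30 and 31.5). Other members of the same lists went the other way in IGF2BP3 knockout. Of the 5 epithelial markers EPCAM and CDH1 were higher, and KRT8 and KRT18 were lower. Of the 12 laminin and hemidesmosome genes 2 were higher (LAMA3 and LAMB3) and 3 lower (LAMA5, LAMB1 and ITGB4). Of the 15 largest increases in F6, 5 were called higher there (C1orf116, LAMA3, ELF3, MGLL and CDH1), and of the 15 largest decreases 5 were lower and ZBED2 was higher. Junction genes were higher in 8 of 27 and lower in 1, kallikreins and their partners higher in 2 of 9, p53 targets higher in 10 of 22, and BMP and TGF-beta genes called in neither direction of 12. Interferon-stimulated genes were lower in 5 of 22 and higher in none, opposite to F6, and PXDN split the clones, with 0.482 CPM in A3, 0.312 in D12 and 17.2 in E4.

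**Figure D5:**
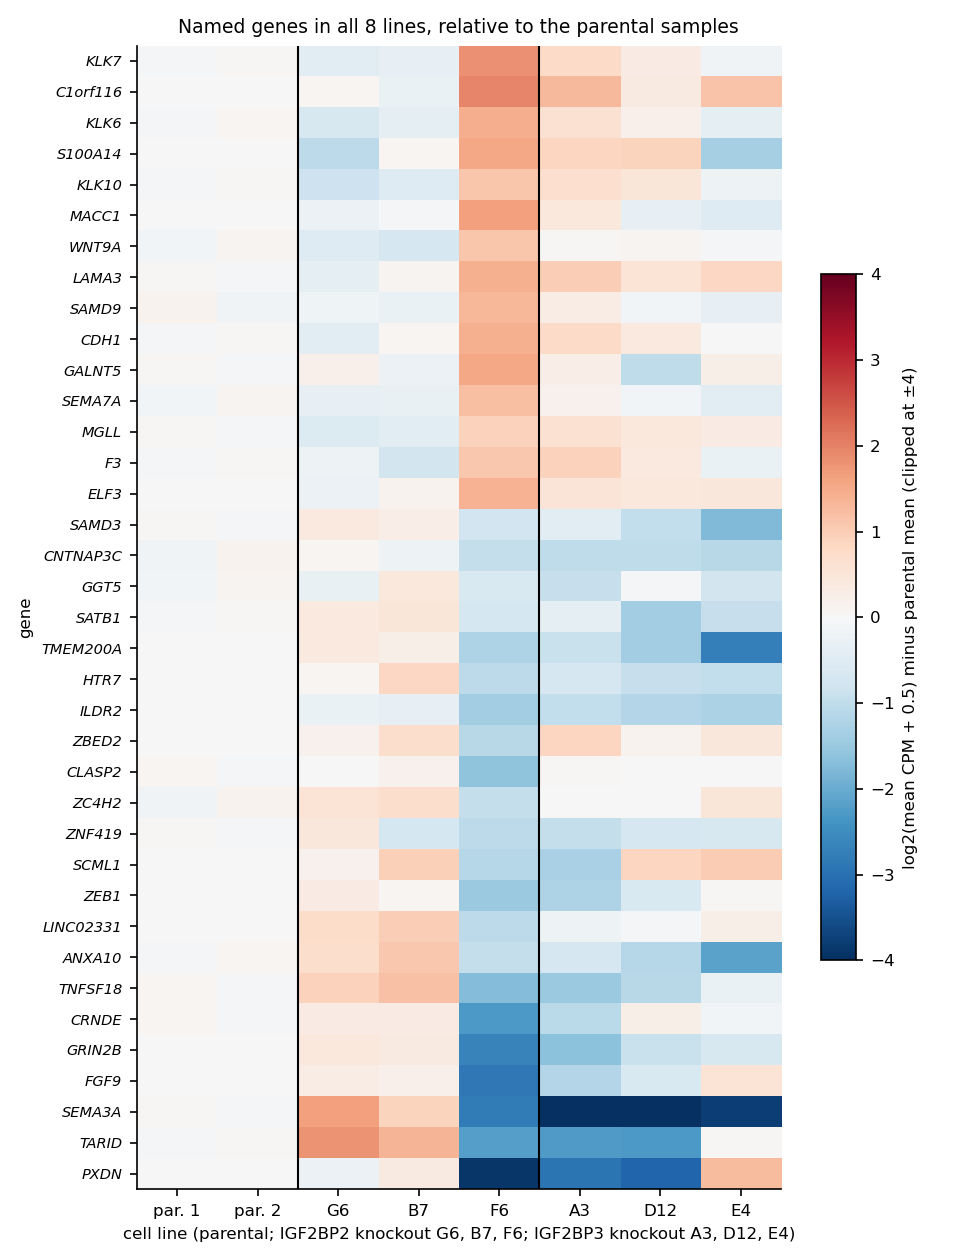
Mean level in all 8 lines of the 30 genes named by size and of those shared with IGF2BP3 knockout other than SNTB1, as log2(mean CPM + 0.5) minus the parental mean, red for higher and blue for lower. SEMA3A is low in F6 and in A3, D12 and E4, and the increases of F6 are strongest in its own column.

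The response to tunicamycin differed between F6 and the other 2 clones in few genes. The median response of ATF4 genes was 2.42 on the log2 scale in F6, 2.14 in B7 and 2.25 in G6, and that of ER folding and degradation genes 2.17, 2.22 and 2.23. A test of the difference in response called 6 of 15356 genes (0.0391%), and none of the ATF4 or ER folding genes was among them.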

How the data were processed

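Poly(A)-selected RNA of HCT116 lines was sequenced in 32 libraries with a directional kit and paired reads, per the labels' protocols. The authors deposited whole-number read counts for 60660 gene identifiers. STAR 2.7.5c and hg38 are named in the submitters' processing notes. The counting tool, the annotation and the use of strand are not given in the sources used here. Every library column was matched to a sample by its title.

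Fits used edgeR 4.0.16 in R 4.3.3 on these counts (TMM, filterByExpr, quasi-likelihood test, Benjamini-Hochberg adjustment, threshold 0.05). F6 was tested against the 8 libraries of B7 and G6 with treatment and replicate number as terms, and the same terms were used in the pairwise, parental and IGF2BP3 knockout comparisons. The difference in tunicamycin response was an interaction term. The SE is the one implied by the F statistic. CPM values were normalized by TMM over all libraries and are not scaled to transcript length, so they compare libraries and not genes.

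Same-numbered libraries deviated together from the means of their clone and treatment (r = 0.16 to 0.46 over 15 pairs, each over 0.1), so the number was kept as a block. In the 3 clones, 21259 to 22425 genes had a count in first replicates and 23423 to 24253 in second ones. Replicate libraries differed beyond sampling noise (chi-square per degree of freedom 4.59 to 11.6).

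Besides SEMA3A, LAMA3 and the listed genes, the text names by rule the 15 largest increases and 15 largest decreases among called genes with a symbol, a mean count of at least 100 and no overlap between F6 and the other 8 libraries, and the 10 largest changes shared with IGF2BP3 knockout. Members and lists were chosen with earlier results of these data known, and 3 lists after the values of this comparison had been seen. The text marks these and other choices made after values were seen. Symbols came from a supplied name table (42022 identifiers), gene positions from GENCODE 29 (GRCh38), not known to be the annotation used in counting, and promoters from RefSeq (GRCh38.p14). Some listed genes are counted but not reported singly here. Fits were tested on simulated counts. Alternatives were DESeq2 1.42.0, its size factors in edgeR, no filter, no replicate block, 1 coefficient per clone, summed replicates and omission of libraries, clones or, chosen after seeing the data, chromosome 8.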

Additional observations from a re-analysis of the deposited data

Results flagged for a closer look

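In 6 genes the response to tunicamycin differed between F6 and the clones B7 and G6, by a test of the interaction over 15356 genes (edgeR, adjusted p of at most 0.05, 0.0391% of genes called). Values are log2 differences in response, F6 minus the others, with mean CPM in control and tunicamycin libraries. MKX, a homeobox gene of tendon, rose more in F6 (0.72, adjusted p = 0.002991), from 21.2 to 40.9 CPM, than in B7 (78.5 to 93.6) or G6 (75.3 to 87.4). TENT5A held its level in F6 (25.1 and 24.9 CPM) and was lower under tunicamycin in B7 (19.9 to 11.5) and G6 (23.2 to 14), a difference of 0.75 (adjusted p = 0.01807). SGMS1, a sphingomyelin synthase, went from 29 to 52.4 CPM in F6, from 26.5 to 30.2 in B7 and from 25.7 to 32.1 in G6 (0.61, adjusted p = 0.0224).

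DUSP6 rose from 71.6 to 152 CPM in F6, from 152 to 245 in B7 and from 176 to 275 in G6 (0.42, adjusted p = 0.0224). GDF15, a stress-induced cytokine, started higher in F6 and rose less steeply, from 84.9 to 423 CPM, against 36.4 to 287 and 60.4 to 391 (-0.51, adjusted p = 0.04031). PDE4B, a phosphodiesterase, was reduced more in F6, from 171 to 92 CPM, than in B7 (257 to 204) or G6 (200 to 139), by -0.46 (adjusted p = 0.04213). No call was left without the replicate block or without the first F6 tunicamycin library, and 614 genes had an unadjusted p under 0.05.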

How the results depend on the processing

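The 30 genes named by size kept their direction and call in every alternative run, and no called gene of the lists changed sign. Of 181 called list or named genes, 5 lost the call with DESeq2, 7 to 42 when 1 library was left out, and 82 when replicate libraries were summed. Against B7 and G6 the 2483 calls became 4436 with 1 coefficient per clone, 580 with counts summed per clone and treatment and 4921 without clone G6. Leaving out 1 library gave 1429 to 2552 for this comparison, 3746 to 4977 against B7, 2800 to 3574 against G6, 2504 to 3597 for B7 against G6, 3073 to 4247 against parental, 1463 to 2106 for IGF2BP3 knockout and 0 to 9 for the interaction.

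Without the replicate block, calls fell from 2483 to 1714 against B7 and G6, from 4583 to 3038 against B7, from 3564 to 2072 against G6, from 3305 to 1804 for B7 against G6, from 4058 to 2108 against parental, from 1941 to 1175 for IGF2BP3 knockout, and from 6 to 0 for the interaction. The interaction gave 11 calls with DESeq2, 40 with no filter on low counts and 1 without clone B7. The cause of these changes was not tested. All 3 clones carry the knockout, so the comparison is one between clones.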
